A study of Mus musculus with 6 samples.

Results

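The 9 genes described here encode proteins through which a cell meets its neighbours: the gap junction proteins Gja1 and Gjc1, the cadherins Cdh1, Cdh2 and Cdh3, and the adhesion molecules Mcam, Alcam, Cd44 and Bcam. They were chosen by name from the 22740 genes of the deposited count table, with earlier results of the same libraries known, and all 9 were found in it. Of these, 8 passed the filter on low counts and Cdh3 did not. The libraries come from B16-F3, a mouse melanoma cell line kept in DMEM with serum and antibiotics. Its cells were sorted by light scatter, which melanin changes, into a high-pigmented population (HPC) and a low-pigmented one (LPC), each with 3 libraries. Both populations share the line and the medium, no drug or genetic change was applied to either, and the labels do not say whether the line is 1 clone, how wide the sort gates were, or whether the libraries of a group came from separate cultures or sorts. The p-values therefore cover no more than the spread among these libraries, and that spread may be technical. Values of the 3 libraries of a group are given in the order of their replicate numbers throughout.

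Gap junctions are channels that join the cytoplasm of touching cells. Each cell contributes a ring of connexin proteins, and ions and small metabolites pass through the docked rings. Cadherins bind their like on the next cell and hold the actin skeleton through catenins. In skin, melanocytes are attached to keratinocytes by E-cadherin (Cdh1) and P-cadherin (Cdh3), and melanomas often carry N-cadherin (Cdh2) instead. Mcam, Alcam and Bcam belong to the immunoglobulin superfamily, and Cd44 is a receptor for hyaluronan in the matrix around cells.

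The libraries held 14695822 to 22186743 counts, and 13715 to 14141 genes had at least 1 count. The summed level of 8 melanocyte markers ran from 33834 to 37570 counts scaled to a common library size (CPM) in HPC and from 33048 to 35533 CPM in LPC. Dct, Pmel and Tyrp1 made up most of this sum, so it says little about the other members. The groups did not overlap for 1 of the 8, against 14.3% of all tested genes. This was Slc45a2, at 1321 ± 169 and 1024 ± 44.5 CPM in HPC and LPC (SD, n = 3 each). Of 10 keratinocyte and epithelial markers, 6 had no count in any library, among them Krt5, Krt14 and Trp63, and the list summed to 8.48 to 10.9 CPM in HPC and 8.16 to 9.77 CPM in LPC. Of 9 immune markers, 6 had no count, Ptprc among them, and the list summed to 1.67 to 2.92 CPM in HPC and 1.28 to 2.08 CPM in LPC. The 7 endothelial markers summed to 9.91 to 10.7 CPM in HPC and 1.42 to 7.77 CPM in LPC, and 4 of them, Cdh5, Kdr, Cldn5 and Emcn, had no count. Vwf made up most of that sum, at 9.997 ± 0.51 and 5.08 ± 3.32 CPM in HPC and LPC (SD, n = 3 each). The 8 fibroblast markers summed to 44.8 to 51.2 CPM in HPC and 27.9 to 46.1 CPM in LPC, with at least 1 count for each gene. The part of either list in the values below was not tested.

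Gja1, which encodes connexin 43, was higher in every HPC library than in any LPC library. Its level was 13.2, 6.54 and 6.10 CPM in the 3 HPC libraries, and 4.05, 0.581 and 2.21 CPM in the 3 LPC libraries. HPC replicate 1 stood well above the other HPC libraries, LPC replicate 2 well below the other LPC libraries, and the groups did not overlap. These levels rest on 236, 145 and 120 reads in HPC and on 60, 11 and 33 reads in LPC. The 11 reads of LPC replicate 2 alone allow a level from 0.290 to 1.04 CPM (exact Poisson 95% interval, counting error only). The means were 8.63 ± 4.01 CPM in the HPC libraries and 2.28 ± 1.73 in the LPC libraries (SD, n = 3 each). In bulk libraries, fewer cells that carry a transcript and less transcript per cell cannot be told apart.

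The difference in Gja1 passed the test where the replicate number entered the fit or DESeq2 was used, and not otherwise on all 6 libraries. With group as the only term, the log2 fold change was 1.94 (SE 0.60, 3.83-fold) and the adjusted p was 0.34 (edgeR quasi-likelihood test, Benjamini-Hochberg over 11921 genes). With the replicate number as a block, it was 2.05 (SE 0.34, 4.14-fold) and Gja1 rose in HPC (edgeR adjusted p = 0.029). DESeq2 called Gja1 without the block (adjusted p = 0.029) and with it (2.9e-06), whereas limma-voom did not (0.28). The difference was positive in each pair of equally numbered libraries, at 1.68, 3.27 and 1.42 on the log2 scale. Leaving out the pair numbered 2, which holds the low LPC library, ended the blocked call (log2 fold change 1.60, edgeR adjusted p = 0.14).

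**Figure D1:**
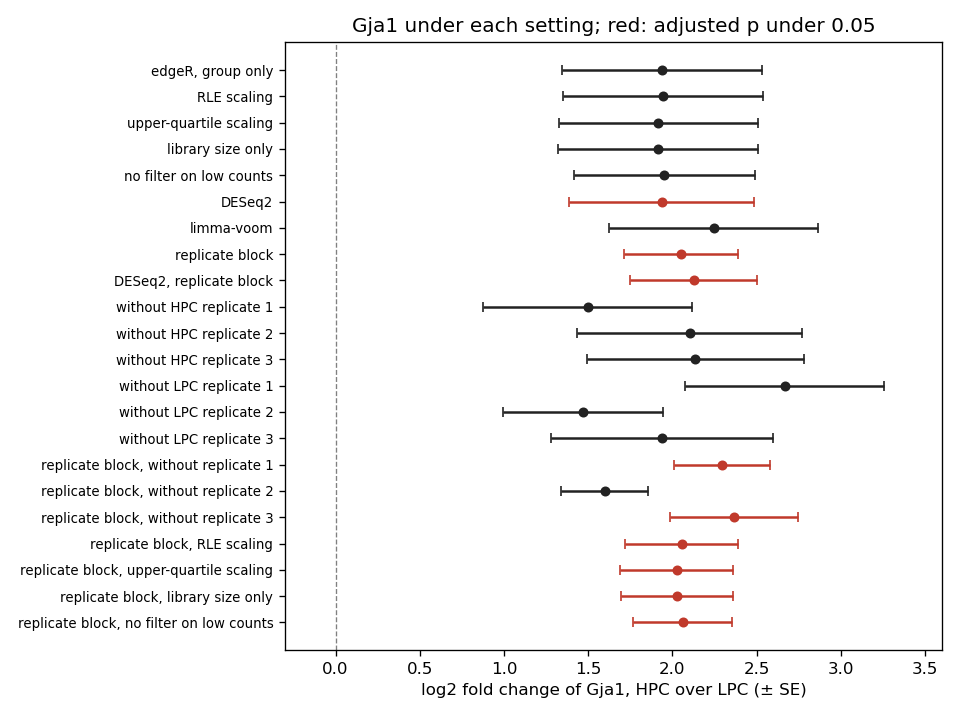
Log2 fold change of Gja1, HPC over LPC (x axis, ± SE), under each setting of the fit (y axis), with red for an adjusted p under 0.05. Every estimate lies above 0, with 1.47 (LPC replicate 2 left out) as the lowest and 2.67 (LPC replicate 1 left out) as the highest, while the call depends on the setting. Because the groups do not overlap, leaving out libraries cannot reverse the sign.

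Gja1 (ENSMUSG00000050953) is on the plus strand of chromosome 10 in GRCm38, from 56377330 to 56402513, and no annotated gene overlaps it. Its promoter window is shown because Gja1 was the only 1 of the 9 genes that edgeR called with the block. The window runs from 250 bases before to 50 bases after the RefSeq start, at chr10:56377050-56377349 on the plus strand of GRCm38.p6. Capitals mark the match to TGANTCA, the letters bound by AP-1 (Fos and Jun) factors, which read the same on both strands.
Gja1 promoter: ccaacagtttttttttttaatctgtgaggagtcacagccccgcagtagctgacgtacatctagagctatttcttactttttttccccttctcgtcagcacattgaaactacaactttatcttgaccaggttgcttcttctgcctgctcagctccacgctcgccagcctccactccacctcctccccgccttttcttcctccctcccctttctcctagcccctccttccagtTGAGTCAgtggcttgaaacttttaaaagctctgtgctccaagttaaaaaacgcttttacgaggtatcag
The match begins 19 bases before the start. TGANTCA was found in 7.81% of 32851 RefSeq promoter windows of the same length, and among the windows searched for 5 of the 9 genes (Gja1, Mcam, Alcam, Cd44 and Bcam) in that of Gja1 alone. The cAMP response element TGACGTCA, present in 1.79% of all windows, was found in the window of Mcam. Neither TCATGTG, the M-box read by MITF (3.77% of windows, both strands), nor TATAAA (13.6%, both strands) was found in these 5. A match describes letters in this window and was not tested as a binding site.

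Gjc1, which encodes connexin 45, lay on the opposite side. Its level was 28.5, 30.6 and 25.2 CPM in the 3 HPC libraries, against 42.8, 39.5 and 35.4 CPM in the 3 LPC libraries. All HPC libraries lay below all LPC libraries, and the spread within each group was small, with means of 28.1 ± 2.73 and 39.2 ± 3.72 CPM (SD, n = 3 each). The log2 fold change was -0.48 without the block (SE 0.13, edgeR adjusted p = 0.29) and -0.48 with it (SE 0.10, edgeR adjusted p = 0.059), so Gjc1 did not pass in either fit. With the block it did pass under upper-quartile scaling (edgeR adjusted p = 0.046), library size alone (0.049) or no filter on low counts (0.033). Gjc1 (ENSMUSG00000034520) is encoded on the minus strand of chromosome 11, from 102799579 to 102819700, and no annotated gene overlaps it.

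Because the reads mark transcript ends, a count does not grow with transcript length, and shares of counts between genes of 1 library can be read as shares of 3' ends. Gja1 made up 31.8%, 17.6% and 19.5% of the summed counts of Gja1 and Gjc1 in the 3 HPC libraries. In LPC replicates 1, 2 and 3 it made up 8.65%, 1.45% and 5.88%. The highest LPC share, with an exact binomial 95% interval of 6.66% to 10.99%, stayed below the lowest HPC share, with an interval of 15.1% to 20.4%. These intervals cover counting error only. The mean share differed by 17.6 percentage points. An exact two-sided permutation test gave p = 0.10, the smallest p that 3 against 3 libraries allow. Adjusted over the 4 shares whose permutation p is given here, that p was 0.40. Further shares were tested and left out of the adjustment. The sum of both connexins was 41.7, 37.1 and 31.3 CPM in HPC and 46.8, 40.1 and 37.6 CPM in LPC, with overlapping groups.

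Neither gene was the main connexin of these cells. Gjb2, which encodes connexin 26 and was named after its values were seen, stood at 482, 543 and 836 CPM in the 3 HPC libraries and at 355, 424 and 718 CPM in the 3 LPC libraries. It held 72.7% to 87.3% of the counts of all 20 connexin genes in HPC and 67.4% to 81.4% in LPC. Gja1 held 2.00%, 0.992% and 0.637% of them in the 3 HPC libraries and 0.768%, 0.0993% and 0.251% in the 3 LPC libraries. Against all connexins the groups thus overlapped (exact two-sided permutation p = 0.20), although each HPC library lay above the LPC library of its own number. The log2 fold change of Gjb2 was 0.31 without the block (edgeR adjusted p = 0.81) and 0.34 with it (edgeR adjusted p = 0.12), and neither passed.

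**Figure D2:**
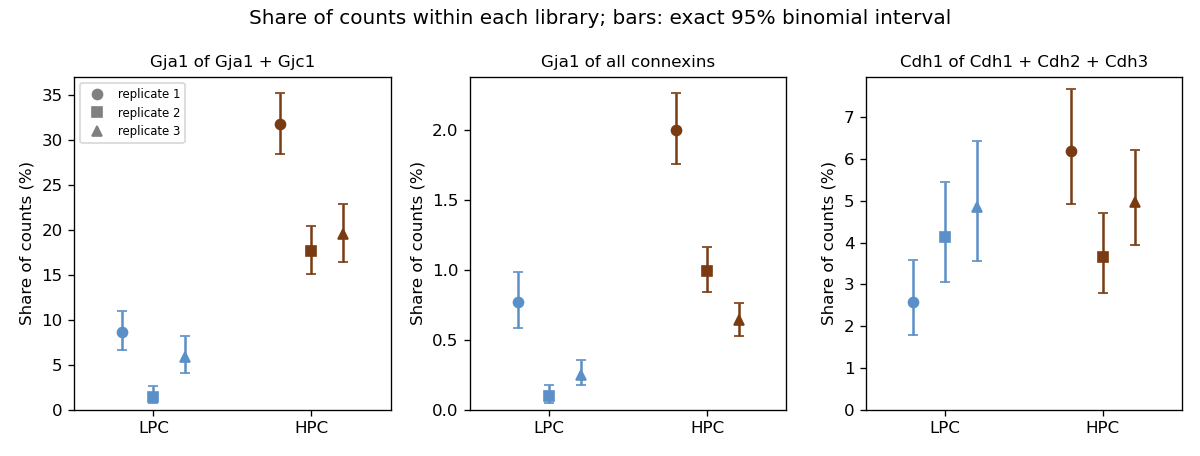
Share of counts (y axis, percent) in each LPC and HPC library for Gja1 among Gja1 and Gjc1, Gja1 among all 20 connexins, and Cdh1 among 3 cadherins, with exact 95% binomial intervals and a symbol for each replicate number. The groups separate in the first panel, at 8.65% or less against 17.6% or more, and overlap in the other two.

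Among the 3 cadherins Cdh1, Cdh2 and Cdh3, Cdh2 prevailed in both populations. Cdh2, which encodes N-cadherin, was at 66.4, 69.0 and 71.8 CPM in the 3 HPC libraries and at 84.5, 57.7 and 59.1 CPM in the 3 LPC libraries. LPC replicate 1 was the highest of all 6 libraries and the other LPC libraries the lowest, so the HPC values lay inside the LPC range. Between the groups it differed by a log2 fold change of 0.04 (SE 0.16, 95% interval -0.32 to 0.40, edgeR adjusted p = 0.97), and 0.06 with the block (edgeR adjusted p = 0.85). With 1 library left out it ran from -0.047 (without LPC replicate 2) and -0.041 (without LPC replicate 3) to 0.24 (without LPC replicate 1), none of which passed. The blocked fit without the pair numbered 1, which called 24.5% of all genes with 1 residual degree of freedom, gave a log2 fold change of 0.28 for Cdh2, which passed there (edgeR adjusted p = 0.023). Cdh2 lies on chromosome 18, where 1 annotated gene, Gm15485, overlaps it on the opposite strand.

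Cdh1, which encodes E-cadherin, was lower by more than an order of magnitude than Cdh2, and counted by 33 to 78 reads per library. It was at 4.38, 2.62 and 3.76 CPM in the 3 HPC libraries and at 2.23, 2.48 and 3.01 CPM in the 3 LPC libraries. HPC replicate 2 fell inside the LPC range, and the other HPC libraries lay above it. Its log2 fold change was 0.47 (SE 0.29, 95% interval -0.19 to 1.14), short of the threshold (edgeR adjusted p = 0.69, and 0.39 with the block), and without HPC replicate 1 it was 0.31. Cdh3, which encodes P-cadherin, had 1 read in LPC replicate 3 and none in the other 5 libraries. Taking 3 counts as the limit that a count of 0 allows, those 5 libraries leave room for Cdh3 up to 0.135 to 0.202 CPM, depending on the library. The read of LPC replicate 3 stood for 0.067 CPM.

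Cdh2 made up 95.1% ± 1.27 of the summed counts of the 3 cadherins in HPC and 96.1% ± 1.21 in LPC (SD, n = 3 each). Cdh1 made up the rest, from 3.65% to 6.19% in HPC and from 2.57% to 4.84% in LPC, apart from the single Cdh3 read of LPC replicate 3. The groups overlapped, and the share of Cdh2 differed by -1.06 percentage points (exact two-sided permutation p = 0.40). In GRCm38, Cdh1 lies on chromosome 8 from 106603351 to 106670246 and Cdh3 on the same chromosome from 106510891 to 106557297, both on the plus strand, with no overlapping gene.

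Of the immunoglobulin superfamily members, Mcam differed in HPC replicate 1 and little elsewhere. Mcam, the melanoma cell adhesion molecule gene, was at 94.4, 62.4 and 54.8 CPM in the 3 HPC libraries and at 59.3, 59.5 and 50.1 CPM in the 3 LPC libraries. The pair differences were 0.67, 0.07 and 0.13 on the log2 scale. The log2 fold change was 0.32 (SE 0.20, 95% interval -0.14 to 0.78, edgeR adjusted p = 0.69, and 0.29 with the block), which missed the threshold, and without HPC replicate 1 it was 0.065. Mitochondrial genes took 3.21% of the counts in HPC replicate 1 and 2.07% to 2.56% in the other libraries. Whether this bears on Mcam or Gja1 was not tested.

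Alcam, which encodes a molecule that binds itself and the lymphocyte receptor CD6, showed no shared order of the groups. It was at 37.4, 48.3 and 45.3 CPM in the 3 HPC libraries and at 49.4, 42.5 and 45.5 CPM in the 3 LPC libraries. HPC replicate 1 lay below all LPC libraries, the other HPC libraries lay inside the LPC range, and the log2 fold change was -0.07 (SE 0.13, 95% interval -0.37 to 0.24, edgeR adjusted p = 0.93, and 0.82 with the block). With 1 library left out it ran from -0.14 (without HPC replicate 2) to 0.040 (without HPC replicate 1).

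Bcam, which encodes a receptor for the laminin alpha 5 chain, varied more within groups than between them. It was at 4.72, 8.43 and 6.46 CPM in the 3 HPC libraries and at 3.91, 13.05 and 9.37 CPM in the 3 LPC libraries. In both groups replicate 1 was lowest and replicate 2 highest. Its log2 fold change was -0.43 (SE 0.41, 95% interval -1.37 to 0.52, edgeR adjusted p = 0.82), and -0.35 with the block (SE 0.21, edgeR adjusted p = 0.41). Leaving out 1 library moved it to -0.0048 at one end, with LPC replicate 2 missing, and to -0.78 at the other, with LPC replicate 1 missing, and neither value passed. In the blocked fits with 1 pair left out it was -0.17 without the pair numbered 2 and -0.24 without 3, and -0.58 without 1, the fit with 24.5% of all genes called, where it passed (edgeR adjusted p = 0.0073). Bcam had 4.76%, 11.9% and 10.54% of the summed counts of Bcam and Mcam in the 3 HPC libraries and 6.19%, 18.0% and 15.8% in the 3 LPC libraries. The groups overlapped (exact two-sided permutation p = 0.40), while the share was lower in HPC in all 3 pairs, a number of pairs with which an exact two-sided paired test cannot go below 0.25. The exact binomial 95% intervals of the libraries were apart in the pairs numbered 2 and 3 and overlapped in the pair numbered 1. They cover counting error only, and those of replicates 1 and 2 were also apart within each group. Intervals that are apart in a pair therefore do not test HPC against LPC.

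Cd44 was by far the most abundant of the 9 genes and lay above 97.4% of all tested genes by mean CPM. It was at 453, 406 and 330 CPM in the 3 HPC libraries and at 471, 446 and 391 CPM in the 3 LPC libraries. Each HPC library lay slightly below the LPC library of its own number, by 0.06, 0.14 and 0.24 on the log2 scale, while the groups overlapped. The log2 fold change of -0.14 (SE 0.14) did not pass (edgeR adjusted p = 0.83, and 0.43 with the block). Its 95% interval ran from -0.47 to 0.19, and with 1 library left out the value ran from -0.24 (without HPC replicate 1) to -0.021 (without HPC replicate 3).

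Mcam (ENSMUSG00000032135) is on the plus strand of chromosome 9, from 44134469 to 44142727, and Alcam (ENSMUSG00000022636) on the minus strand of chromosome 16, from 52248996 to 52454074. Cd44 (ENSMUSG00000005087) lies on chromosome 2 from 102811141 to 102901665 and Bcam (ENSMUSG00000002980) on chromosome 7 from 19756131 to 19771016, both on the minus strand. Mcam overlaps Gm10687, Cd44 overlaps Gm23731 and Bcam overlaps Gm26600 on the opposite strand, and Bcam also overlaps Gm45114 on its own strand. The use of strand in counting is not given in the sources used here, so reads of these neighbours may have been counted with them.

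**Figure D3:**
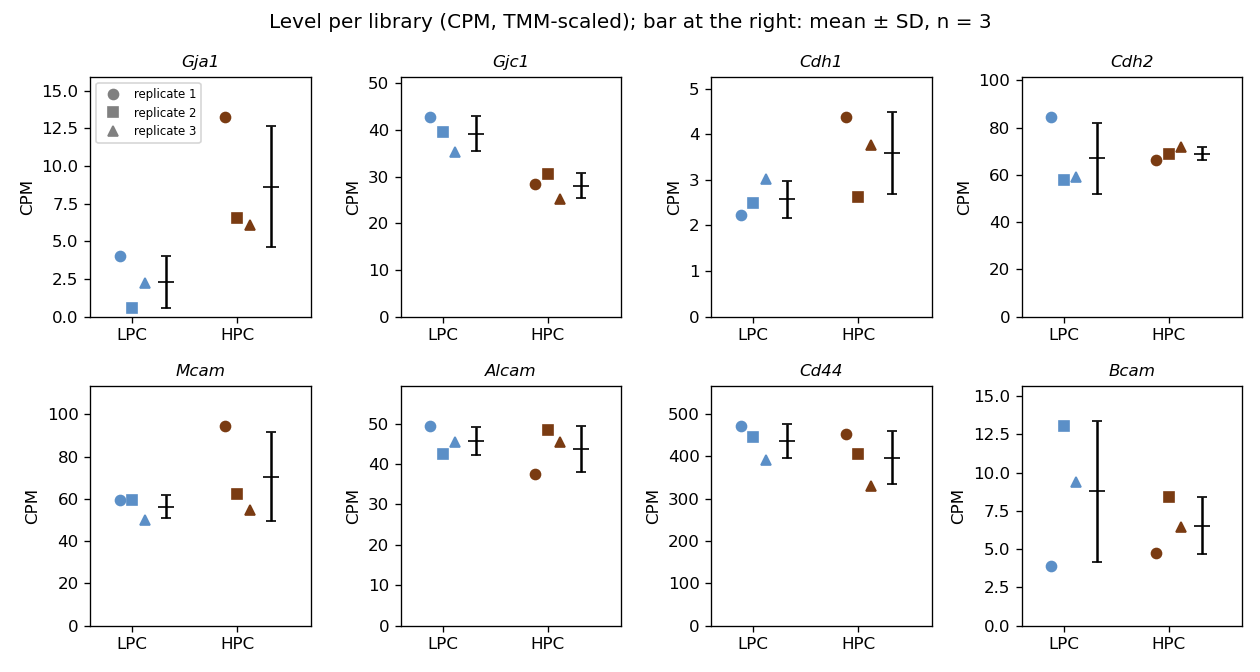
Level in each library (y axis, CPM, TMM-scaled) of the 8 tested genes in LPC and HPC, with a symbol for each replicate number and the mean ± SD (n = 3) beside the points. The groups separate for Gja1 (HPC higher) and Gjc1 (HPC lower) and overlap for the other 6 genes.

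Ordered by mean CPM over all 6 libraries, Cd44 came first at 416, followed by Cdh2 at 68.1, Mcam at 63.4, Alcam at 44.7, Gjc1 at 33.6, Bcam at 7.66, Gja1 at 5.45 and Cdh1 at 3.08. The library ranges of Cdh2 and Mcam overlapped, as did those of Alcam and Gjc1, of Bcam and Gja1, and of Gja1 and Cdh1. Cd44 stood apart from all others in every library. Gja1 thus combined the largest fold difference of the 8 tested genes with one of the lowest levels.

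Counted over the 8 tested genes, edgeR called none without the block, where it called 0.0419% of all genes. At an unadjusted p under 0.05 there were 2, Gja1 and Gjc1, against 9.37% of all genes, and DESeq2 called Gja1 (1.90% of all genes) and limma-voom none (0.0419%). With the block edgeR called Gja1 alone, where it called 2.52% of all genes and 1.43% as higher in HPC. DESeq2 with the block also called Gja1 alone, and 3.92% of all genes. The groups did not overlap for 2 of the 8 genes, against 14.3% of all tested genes, 7.16% with HPC higher and 7.18% with HPC lower. The sign of the difference was the same in all 3 pairs for 5 of the 8, against 40.9% of all tested genes. The median log2 fold change of the 8 genes was -0.01 without the block, and -0.01 over all tested genes.

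**Figure D4:**
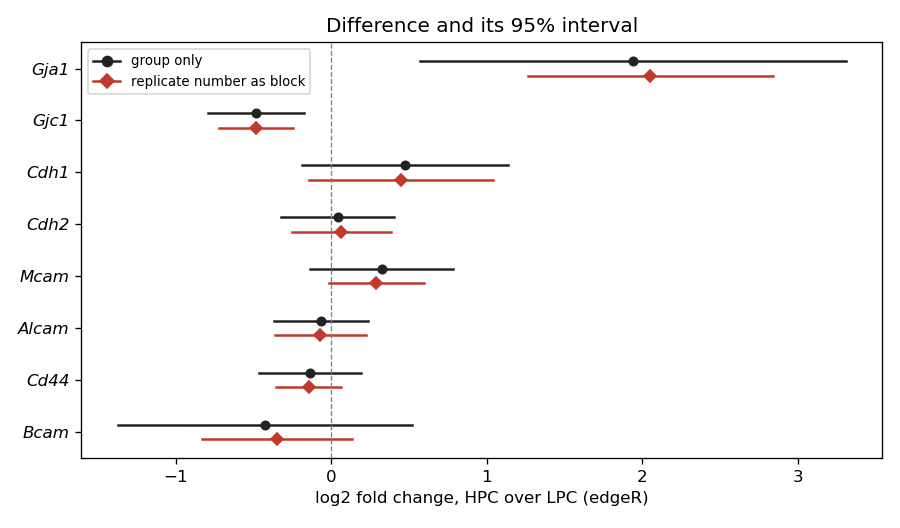
Log2 fold change, HPC over LPC (x axis), of the 8 tested genes with its 95% interval, not adjusted for the number of genes, from edgeR with group only (black) and with the replicate number as a block (red). Only the intervals of Gja1, 0.57 to 3.31 without the block, and of Gjc1, -0.79 to -0.17, leave out 0.

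Other genes of cell contact were read from 7 further gene lists and a list of connexins and pannexins. Of 23 connexin and pannexin genes 7 were tested, and Gja1 was the only 1 called in the blocked edgeR fit (2.52% of all genes). Gjc3, Gja3 and Gjb1 had overlapping groups. The channel gene Panx1 was at 34.7 ± 1.23 CPM in the HPC libraries and 37.7 ± 0.64 in the LPC libraries (SD, n = 3 each). Its HPC libraries all lay below its LPC libraries, and it did not pass (edgeR adjusted p = 0.55 with the block). Of 23 genes for connexin 43 partners and regulators, such as the scaffold Tjp1, the kinase Src and the ubiquitin ligase Nedd4, edgeR called none with the block, with 4 at an unadjusted p under 0.05 (18.8% of all genes), and DESeq2 with the block called none. In the blocked fit their median log2 fold change was 0.01, against -0.01 over all tested genes.

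Of 28 cadherin genes 6 were tested, and Cdh10 was lower in HPC with the block. Cdh10, a type II cadherin known from the nervous system, was at 1.57, 2.07 and 1.58 CPM in the 3 HPC libraries and at 4.25, 4.12 and 3.48 CPM in the 3 LPC libraries. All HPC libraries lay below all LPC libraries, and the fall was 2.26-fold with the block, a fit that called 1.10% of all genes as lower in HPC (edgeR adjusted p = 0.049, log2 fold change -1.18, SE 0.23; adjusted p = 0.20 without the block). DESeq2 called Cdh10 without the block (adjusted p = 0.029), where it called 1.90% of all genes, and not with it (0.063). With the block DESeq2 called 1 of the 6, Cdh13 (adjusted p = 0.0042), against 3.92% of all genes. In the blocked edgeR fit 2 of the 6 had an unadjusted p under 0.05, against 18.8% of all genes. Cdh19, a cadherin of the neural crest lineage, was more abundant than Cdh2 at 126 ± 20.6 CPM in the HPC libraries and 131 ± 12.5 in the LPC libraries and missed the threshold (edgeR adjusted p = 0.77 with the block).

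Of 24 genes for catenins and adherens junction linkers 17 were tested, and Ctnnal1 alone was called with the block, as higher in HPC. That edgeR fit called 1.43% of all genes as higher in HPC. Ctnnal1, a relative of the alpha-catenins, was at 52.2, 57.5 and 56.8 CPM in the 3 HPC libraries and at 33.3, 38.5 and 43.9 CPM in the 3 LPC libraries (1.45-fold, log2 fold change 0.53, SE 0.10, edgeR adjusted p = 0.042, against 0.24 without the block). The groups did not overlap. Ctnnb1, the beta-catenin gene, was at 1915 ± 32.4 CPM in the HPC libraries and 2121 ± 29.2 in the LPC libraries. All HPC libraries lay below all LPC libraries, and Ctnnb1 missed the threshold (edgeR adjusted p = 0.72 without the block and 0.45 with it). Jup, which encodes plakoglobin and was named after its values were seen, was at 5.95, 4.28 and 7.98 CPM in the 3 HPC libraries and at 8.03, 22.7 and 28.5 CPM in the 3 LPC libraries. Its groups did not overlap, and Jup lay just outside the threshold with the block (log2 fold change -1.61, SE 0.33, edgeR adjusted p = 0.0501). DESeq2 called Jup without the block (adjusted p = 0.0044) and with it (1.9e-05). It also called Ctnnal1 (0.037 and 0.010), so 2 of the 17 in each fit, against 1.90% and 3.92% of all genes. In this list the groups did not overlap for 7 of the 17, with HPC higher in 2 and lower in 5, against 14.3% of all tested genes.

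Of 6 tested transcription factors that switch cadherins, such as Zeb2 and Snai2, edgeR called none with the block, and DESeq2 with the block called none. In the blocked edgeR fit 1 of them had an unadjusted p under 0.05, against 18.8% of all genes. The list of immunoglobulin superfamily and tetraspanin genes had 27 tested members. edgeR called none of them with the block, with 6 at an unadjusted p under 0.05 (18.8% of all genes), while DESeq2 with the block called 2 (3.92% of all genes). These were Pvr, the poliovirus receptor gene, at 56.0 ± 4.57 and 40.0 ± 1.54 CPM in HPC and LPC (edgeR adjusted p = 0.060 with the block), and Igsf8, at 533 ± 11.2 and 413 ± 16.2 CPM (0.084), both named after their values were seen.

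Of 21 tested genes for ligands, partners and processing of CD44 and Bcam, edgeR called none with the block, with 7 at an unadjusted p under 0.05 (18.8% of all genes), and DESeq2 with the block called 2 (3.92% of all genes). These were Hyal1, a hyaluronidase gene, at 46.7 ± 5.79 and 29.2 ± 9.94 CPM in HPC and LPC with groups that did not overlap (DESeq2 adjusted p = 0.0020 and edgeR adjusted p = 0.051, both with the block), and Hmmr, a hyaluronan receptor gene, at 139 ± 26.9 and 94.2 ± 29.04 CPM with overlapping groups (0.027 and 0.15), both named after their values were seen. Lama5, the laminin chain bound by Bcam, was at 176 ± 84.5 and 147 ± 66.3 CPM in HPC and LPC, and the sheddase gene Adam10 at 203 ± 6.86 and 185 ± 12.9 CPM. The median log2 fold change of this list with the block was 0.12, that of 14 tested tight junction genes 0.10 and that of the immunoglobulin superfamily list -0.06. None of the tight junction genes was called by edgeR with the block, with 1 at an unadjusted p under 0.05 (18.8% of all genes). DESeq2 with the block called none of them.

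**Figure D5:**
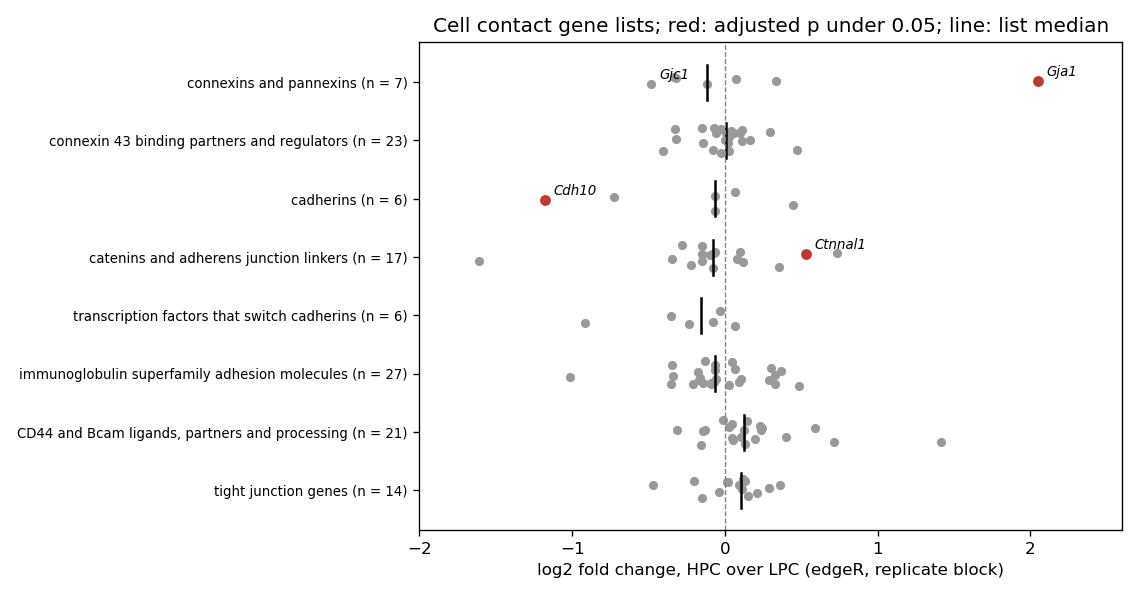
Log2 fold change, HPC over LPC, from edgeR with the replicate block (x axis) for each tested gene of the 8 lists (y axis), with red for an adjusted p under 0.05 and a line at each list's median. Gja1 at 2.05, Cdh10 at -1.18 and Ctnnal1 at 0.53 are the called genes, and Gjc1 at -0.48 is labelled beside them.

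The pattern of Gja1 over the 6 libraries was nearest to those of Tyr, Met, Ano3, Fam212b and Ccng1, in this order. Likeness was the root mean square difference of log2 CPM after each gene was centred on its own mean, among 9390 tested genes with a mean of at least 10 CPM, and ran from 0.48 for Tyr to 0.71 for Ccng1. Tyr, the tyrosinase gene, was at 908, 855 and 994 CPM in the 3 HPC libraries and at 261, 62.2 and 238 CPM in the 3 LPC libraries. Met was at 1334, 1559 and 1822 CPM and at 444, 173 and 556 CPM. In all of these genes, as in Gja1, LPC replicate 2 was the lowest of the 6 libraries. The genes were chosen for likeness to Gja1, and that choice favours genes with the same lowest library. The same libraries and the same contrast gave all of these patterns, so their likeness is a description.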

How the data were processed

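Per the labels' protocols, QuantSeq 3' mRNA-Seq FWD libraries were made from total RNA of sorted B16-F3 cells and sequenced on a NextSeq 500. STAR and GRCm38 are named in the submitters' processing notes. How reads were counted, with which annotation, and whether strand or molecular identifiers were used is not given in the sources used here. Raw counts per gene were deposited by the authors for 6 libraries, 3 per group, and each count column was matched to its sample by name. PCR copies are not independent molecules, so counting intervals cover counting error only.

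The 9 genes, the 8 context lists and the 5 marker lists were chosen with earlier results of these data known. Genes were filtered with filterByExpr, which left 11921, scaled with TMM factors and tested with edgeR 4.0.16 in R 4.3.3 (quasi-likelihood, group only, 4 residual degrees of freedom), with Benjamini-Hochberg adjustment over all genes and a threshold of 0.05. SEs come from the F statistic. The tests were checked on simulated data. CPM values use TMM factors, and pair differences are in log2 CPM with a prior count of 2. DESeq2 1.42.0 and limma-voom (limma 3.58.1) were alternatives, beside other scalings, no filter and left-out libraries.

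Equally numbered libraries deviated together from their group means (correlations 0.42, 0.35 and 0.65 across genes for numbers 1, 2 and 3, above the minimum of 0.1), so a blocked fit on the replicate number (2 residual degrees of freedom) stands beside the one without it. This pairing comes from the data, not the labels.

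Named genes are the 9, up to 4 called genes of each context list by size of change, and the 5 genes nearest in pattern to Gja1. Other genes were named after their values were seen or as typical list members. Positions are from GENCODE M21 on GRCm38, and promoter windows from RefSeq on GRCm38.p6. List symbols absent from the count table were matched by gene ID.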

Additional observations from a re-analysis of the deposited data

How the results depend on the processing

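Gja1 was higher in HPC under every setting run. Its groups did not overlap, so leaving out a library or a pair could not reverse that sign and is no support for it. Without the block edgeR called 5 genes and none of the contact genes. The number of called genes was 28 with no filter on low counts (12 of them higher in HPC) and 231 with DESeq2, which also called 1 contact gene, Gja1 (log2 fold change 1.94). With the replicate block it was 301 with edgeR and 488 with DESeq2, and each called 1 contact gene, Gja1 (2.05 and 2.13). With the replicate block and settings chosen after seeing the data, edgeR called 312 genes and 1 contact gene under RLE scaling (Gja1 at 2.05), 289 and 2 under upper-quartile scaling (2.03), 332 and 2 with library size only (2.03) and 616 and 2 with no filter (2.06), the second contact gene being Gjc1. Leaving out 1 library without the block gave 0 to 43 called genes, 0 contact genes and a Gja1 log2 fold change from 1.47 to 2.67. Leaving out 1 pair with the replicate block gave 0 called genes without the pair numbered 2, 196 without 3 and 2947 without 1, 0 to 4 contact genes, and 1.60 to 2.37 for Gja1 (2.29 without 1). These fits have 1 residual degree of freedom. Their 4 contact genes without the pair numbered 1 were Gja1, Gjc1, Cdh2 and Bcam, in a fit that called 24.5% of all genes. With the replicate block the sign of Alcam reversed without the pair numbered 1 (0.10) and that of Cdh2 without the pair numbered 2 (-0.035) or 3 (-0.044). Without the block it reversed for Alcam without HPC replicate 1 (0.040) and for Cdh2 without LPC replicate 2 (-0.047) or 3 (-0.041). Over the left-out libraries Cdh2 ran from -0.047 to 0.24 and Alcam from -0.14 to 0.040. The cause was not tested. With TMM scaling and the filter, on all 6 libraries, the block changed the call of no contact gene other than Gja1. Depth limits Cdh3 and, in LPC replicate 2, Gja1.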

Other observations

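Some contact genes differed more between replicate numbers than between HPC and LPC. Bcam deviated from its group mean by -0.42, 0.40 and 0.02 on the log2 scale in the 3 HPC libraries and by -0.98, 0.73 and 0.25 in the 3 LPC libraries. Cdh13, which encodes a cadherin anchored to the membrane by a lipid and was named after its values were seen, was at 57.6, 13.2 and 22.7 CPM in the 3 HPC libraries and at 74.4, 31.5 and 34.5 CPM in the 3 LPC libraries. Each HPC value lay below the LPC value of its number, while the groups overlapped. Cdh13 did not pass with the block in edgeR (log2 fold change -0.73, SE 0.17, adjusted p = 0.072) and did in DESeq2 (adjusted p = 0.0042). Cd44 was lowest in replicate 3 and highest in replicate 1 of both groups.

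Some markers of other cell types also differed in the blocked fit. Postn, a matrix protein gene of the fibroblast list, was higher in HPC with the block (25.0 ± 7.81 against 12.6 ± 2.72 CPM, SD, n = 3 each, edgeR adjusted p = 0.039). Pdgfra of the same list was lower with the block (4.31 ± 1.24 against 9.47 ± 4.03 CPM, edgeR adjusted p = 0.045). Without the block neither passed (edgeR adjusted p = 0.27 and 0.34). Of the 4 tested markers of this list the blocked edgeR fit thus called 1 as higher and 1 as lower, against 1.43% and 1.10% of all genes. Of the other 6 markers of that list, Col1a2 was at 15.3 ± 5.25 against 11.9 ± 10.6 CPM with overlapping groups and Col1a1 at 2.604 ± 0.11 against 3.22 ± 0.55 CPM, and neither passed in the blocked fit (edgeR adjusted p = 0.26 and 0.54). The remaining 4 were near 0 over the 6 libraries together, with 1 count for Dcn, 2 each for Col3a1 and Thy1 and 7 for Lum.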
